A study of Mus musculus with 6 samples.

Results

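The 10 genes of interleukin-6 (IL-6) family signalling followed here in mouse liver were the receptor chains Il6ra, Il6st, Osmr and Lifr, the kinases Jak1 and Jak2, the transcription factor Stat3, the feedback inhibitor Socs3, the transcription factor Cebpd and the metalloreductase gene Steap4. Every probe set that the platform annotation names with exactly 1 of these symbols was taken, which gave 25 of the 22626 probe sets analysed, for all 10 of these genes among 12393 with a symbol of their own. Of the 25, 22 were bright enough to be tested, among 13575 tested in all. Livers came from 6 male obese KK/H1J mice, a strain in which many genes together cause obesity and type 2 diabetes, aged 12 to 14 weeks and weighing about 35 g. The BPD group of 3 mice (numbers 23, 28 and 36) received Ad-BPD, an adenovirus that carries a PFK-2/FBPase-2 enzyme without its bisphosphatase activity. The GFP group of 3 (22, 29 and 31) received Ad-GFP, the same kind of virus with green fluorescent protein. Both viruses were given by tail vein at 1 stated dose, and livers of freely fed mice were taken on day 7. All mice thus carried an adenovirus, and no liver without virus was analysed here. Each liver was hybridised to its own array, and the whole piece of liver was measured, so fewer cells of a type and less RNA per cell cannot be told apart.

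Cytokines of the IL-6 family bind a receptor chain of their own and then signal through a shared chain, gp130, which Il6st encodes. Il6ra encodes the chain that binds IL-6, Lifr the receptor of leukaemia inhibitory factor (LIF), and Osmr the receptor chain of oncostatin M, a cytokine released largely by myeloid cells. The chains activate JAK kinases, which phosphorylate STAT3, and in hepatocytes STAT3 together with C/EBP factors drives acute phase genes. SOCS3 is induced by STAT3 and shuts off gp130 and its kinases. Steap4 encodes a membrane enzyme that reduces iron and copper and is induced by inflammatory cytokines.

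The promoters of the inhibitor and of the metalloreductase, both with a probe set higher in BPD livers, are shown. Among the promoters of these genes that were searched, they were the ones that held the palindrome TTCNNNGAA, the core of STAT binding sites. The sequences are those of RefSeq on GRCm38.p6, and the match stands in capitals within Socs3 (chr11:117969502-117969530, minus strand, starting 154 bases before the annotated start) and within Steap4 (chr5:7960346-7960374, plus strand, starting 116 bases before the start).
Socs3: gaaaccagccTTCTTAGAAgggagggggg
Steap4: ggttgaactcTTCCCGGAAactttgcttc
The 250 bases before the start were searched for 10 promoters of 9 of these genes, and 2 of the 10 held the palindrome, against 7.02% of all 32851 promoters of that length. Cebpd had no entry among these promoters and was not searched. The looser C/EBP core TTGCNNAA, searched on both strands, was in 1 of the 10, that of Steap4, against 9.56% of all promoters, and did not overlap the palindrome there. The whole Steap4 window (chr5:7960222-7960471, plus strand) is shown with both matches in capitals, the palindrome first.
Steap4 promoter: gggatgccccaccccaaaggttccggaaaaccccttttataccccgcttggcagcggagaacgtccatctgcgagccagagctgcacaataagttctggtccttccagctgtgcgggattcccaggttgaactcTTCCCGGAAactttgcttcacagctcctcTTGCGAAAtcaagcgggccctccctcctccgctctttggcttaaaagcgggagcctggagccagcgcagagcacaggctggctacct
A match of letters is not a measured binding site. The RefSeq records of Socs3, Osmr, Lifr, Jak1 and Stat3 also reach into their searched windows, so that transcripts of these genes may start further upstream.

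The receptor chains Il6ra and Lifr were lower in BPD livers. Higher were the tested probe set of the receptor chain Osmr, a probe set of the inhibitor and both of the metalloreductase. The other probe sets of the inhibitor did not pass, and the Osmr call was lost when certain single mice were left out. Neither the shared chain, the kinases, Stat3 nor Cebpd passed the test. Of the 22 probe sets tested, 4 were higher and 4 lower (limma, adjusted p under 0.05 over all 13575 probe sets), or 18.2% in each direction. The background over all probe sets was 8.29% higher and 20.3% lower, or 28.6% in either direction. The share of lower members was therefore near the background and that of higher members above it, and no test of this difference was made. The lower probe sets belonged to Il6ra and Lifr and the higher ones to Osmr, Socs3 and Steap4. The values are log2 differences of array signals, BPD minus GFP, after each array was centred on its median. On this scale the median gene differed by -0.22, whereas with the deposited scaling it differed by 0.08 and with quantile normalization by -0.06, so a difference near these values is no more than that of the median gene. The shares above are those after centring. With the deposited scaling the background was 16.7% higher and 9.68% lower. There Socs3 1456212_x_at was called higher too, and Lifr 1454984_at was not called. After quantile normalization the same probe sets were called as after centring, against a background of 12.4% higher and 12% lower. All livers of one group lay above those of the other, after centring, in 9 of the 22 probe sets (background 46.7%), 4 with BPD above (background 12.7%) and 5 with BPD below (background 34%). A Cebpd probe set that did not pass, 1423233_at, is among the latter.

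**Figure D1:**
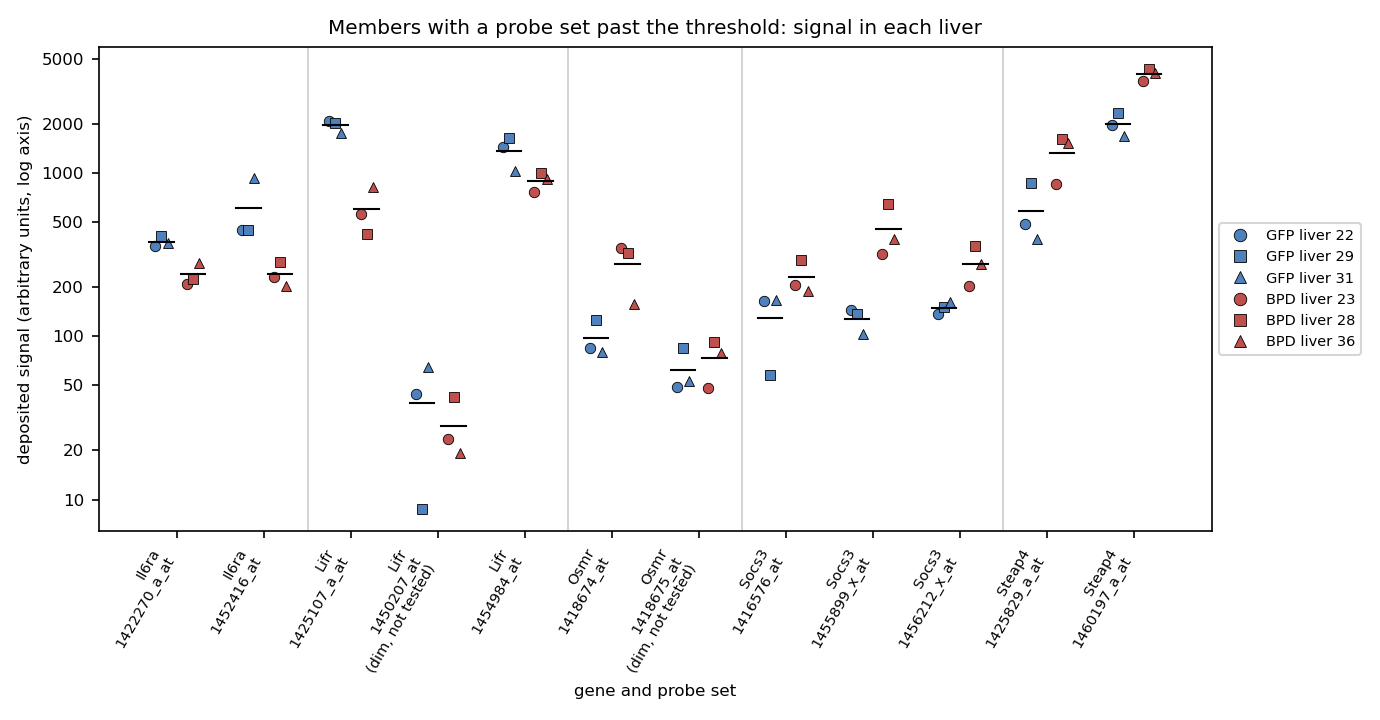
Deposited signal (log axis) of each liver for all probe sets of Il6ra, Lifr, Osmr, Socs3 and Steap4; points are livers and horizontal bars the means of 3. The GFP livers sit above the BPD livers in both Il6ra probe sets and in the tested Lifr probe sets, and below them in Osmr 1418674_at, in the 3 Socs3 probe sets and in Steap4 1460197_a_at.

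Lifr had the largest difference of these genes. Its probe set 1425107_a_at read 2080.0, 2015 and 1764 in GFP livers 22, 29 and 31 and 558, 421 and 822 in BPD livers 23, 28 and 36. No BPD liver came within reach of the lowest GFP liver, and liver 28 was the lowest of all. The log2 difference was -2.03 ± 0.26 (SE, n = 3 per group), a 4.07-fold lower level (limma adjusted p = 9.8e-04). The probe set 1454984_at read 1444, 1638 and 1025 in GFP and 764, 996 and 916 in BPD livers, a difference of -0.89 ± 0.19 (adjusted p = 0.0091). Here the groups came close, with GFP liver 31 at 1025 next to BPD liver 28 at 996. This smaller difference did not pass with the deposited scaling (-0.59, limma adjusted p = 0.057), whereas 1425107_a_at passed under every alternative in which it was measured. A further probe set, 1450207_at, was dim and overlapping, with 23.4, 42.4 and 19.2 in BPD and 44.1, 8.71 and 64.9 in GFP livers. Mouse liver is known to make both membrane-bound and soluble LIF receptor, and which transcript each probe set measures is not given in the sources used here.

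Il6ra, the chain that lets hepatocytes respond to IL-6, was lower in both of its probe sets. In 1422270_a_at the signal was 356, 410.0 and 374 in GFP and 210.3, 225 and 282 in BPD livers. All BPD livers were below all GFP livers, and the difference was -0.94 ± 0.17, or 1.92-fold (limma adjusted p = 0.0042). In 1452416_at it was 449.9, 444 and 937 in GFP and 231, 283 and 203 in BPD livers. The groups again did not overlap, although GFP liver 31 stood well above the other GFP livers. The difference was -1.52 ± 0.28, or 2.87-fold (limma adjusted p = 0.0046), and -1.16 without GFP mouse 31, still past the threshold (adjusted p = 0.0089). Both probe sets kept direction and call under all 3 scalings.

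Osmr, the oncostatin M receptor chain, went the other way in the probe set that could be tested. In 1418674_at the signal was 85.2, 127 and 80.6 in GFP and 346, 322 and 158 in BPD livers. The BPD livers lay above all GFP livers, but liver 36 was much closer to them than livers 23 and 28. The difference was 1.01 ± 0.28, or 2.01-fold (limma adjusted p = 0.026). The call was lost when any of 4 mice was left out, BPD 23 or 28 (adjusted p 0.087 or 0.104) and GFP 22 or 31 (0.070 or 0.068), and just missed without the filter on dim probe sets (0.052). The other probe set, 1418675_at, was too dim to be tested and overlapped, with 48.1, 92.7 and 79.0 in BPD and 48.6, 85.1 and 53.5 in GFP livers. Osmr and Lifr, which differed in opposite directions, are neighbours on mouse chromosome 15 in the GRCm38.p6 gene table, with 0 protein-coding genes between them.

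Il6st, the shared gp130 chain, did not pass in any of its 3 probe sets. The brightest, 1452843_at, read 1288, 1252 and 1181 in GFP and 1339.6, 1699 and 1212 in BPD livers. The groups overlapped, and the 95% interval of the log2 difference ran from -0.49 to 0.24. The probe sets 1421239_at and 1460295_s_at were at 0.47 ± 0.25 and 0.07 ± 0.21 (limma adjusted p of 0.183 and 0.825), and BPD liver 28 was the highest of all livers in each. The interval of 1421239_at ran from -0.09 to 1.04, which leaves room for a rise of that size at this number of arrays.

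Neither kinase passed. Jak1, which pairs with gp130, was measured by 3 probe sets at -0.05 ± 0.15, 0.25 ± 0.27 and 0.0020 ± 0.17 (1433803_at, 1433804_at and 1433805_at; lowest limma adjusted p = 0.498). Its probe set 1433803_at read 842, 889 and 817 in BPD and 691, 796 and 652 in GFP livers as deposited, all BPD above all GFP, a separation that was gone after centring. For this probe set the 95% interval after centring was -0.38 to 0.28. Jak2 was at 0.21 ± 0.23 in 1421065_at and at 0.11 ± 0.15 in 1421066_at, with intervals from -0.31 to 0.73 and from -0.23 to 0.45. In 1421066_at the deposited signal was 455, 594 and 467 in BPD and 327, 401 and 394 in GFP livers, again apart before centring and overlapping after it.

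**Figure D2:**
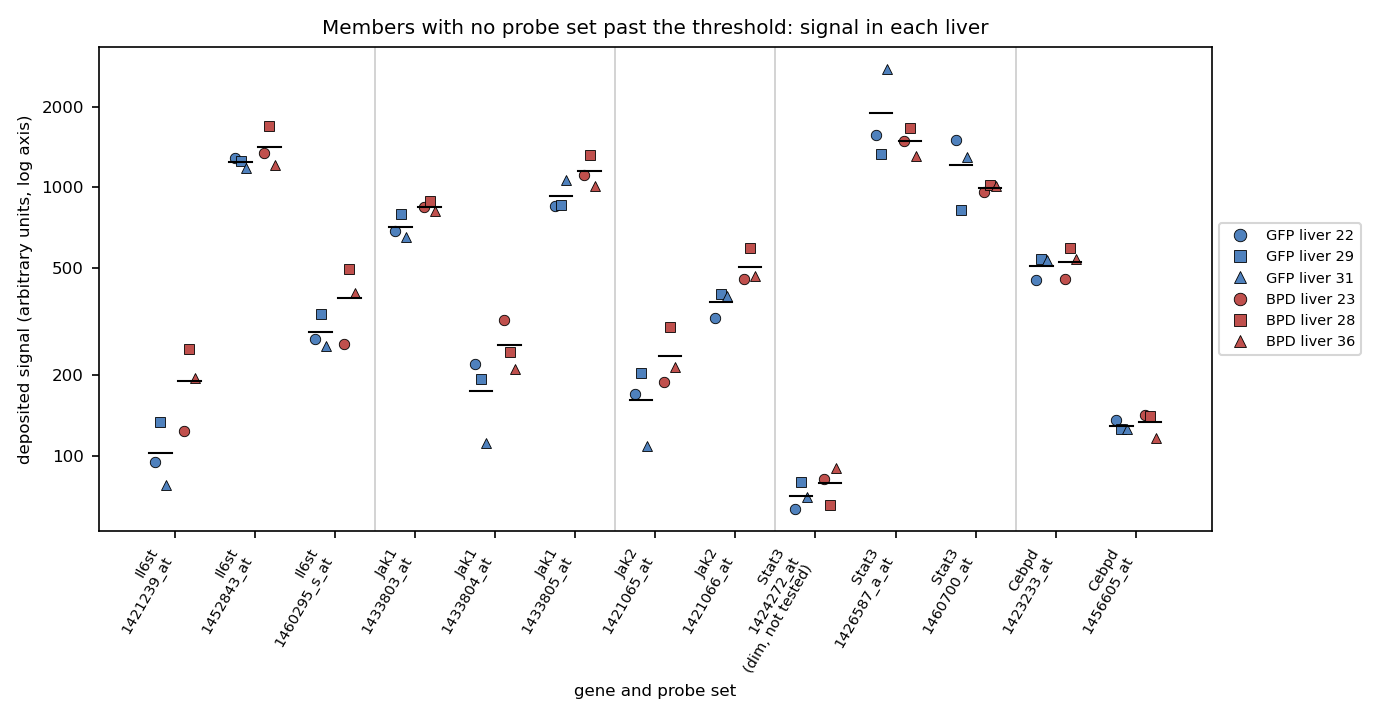
Deposited signal (log axis) of each liver for all probe sets of Il6st, Jak1, Jak2, Stat3 and Cebpd; points are livers and bars the means of 3. The groups overlap in most probe sets, and GFP liver 31 stands alone at 2764 in Stat3 1426587_a_at.

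Stat3, the transcription factor at the centre of the pathway, did not pass, and in both tested probe sets its GFP livers varied more than its BPD livers. In 1426587_a_at the signal was 1568, 1336 and 2764 in GFP and 1493, 1668 and 1309 in BPD livers. Only GFP liver 31 stood apart. In 1460700_at it was 1508, 826 and 1295 in GFP and 964, 1019 and 1009.9 in BPD livers, where GFP liver 29 was the lowest of all and the BPD livers lay close together. The differences were -0.57 ± 0.27 and -0.53 ± 0.25 (limma adjusted p of 0.132 and 0.137). Without GFP mouse 29 both passed, at -0.84 and -0.83 (adjusted p of 0.036 and 0.015). They shrank to -0.26 in 1426587_a_at without GFP mouse 31 and to -0.31 in 1460700_at without GFP mouse 22, and neither passed (adjusted p of 0.395 and 0.379). Under the deposited scaling they were -0.27 and -0.23, and after quantile normalization -0.24 and -0.26. The third probe set, 1424272_at, was too dim to be tested, with 81.8, 65.8 and 89.9 in BPD and 63.1, 80.1 and 70.0 in GFP livers.

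Socs3, the inhibitor that STAT3 induces, was higher in 1 of its 3 probe sets. In 1455899_x_at the signal was 144, 137 and 104 in GFP and 318, 649 and 394 in BPD livers. The lowest BPD liver was well above the highest GFP liver, and liver 28 was highest. The difference was 1.35 ± 0.24, or 2.54-fold (limma adjusted p = 0.0037), and it passed with any mouse left out (1.12 to 1.53). In 1456212_x_at the signal was 137, 151 and 161 in GFP and 203, 355 and 277 in BPD livers, which did not overlap either, but the difference of 0.49 ± 0.20 missed the threshold (adjusted p = 0.087). It passed with the deposited scaling (0.80, adjusted p = 0.029) and without BPD mouse 23 (0.66, adjusted p = 0.041). In 1416576_at the signal was 163, 57.6 and 167 in GFP and 207, 293 and 188 in BPD livers, a difference of 0.54 ± 0.37 (adjusted p = 0.289), with GFP liver 29 far below the other GFP livers. Without that mouse the difference shrank to 0.06. The ending _x_at marks probe sets whose probes can also bind other transcripts, and 1416576_at is the Socs3 probe set without it.

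Cebpd, which is usually induced together with Socs3 in the acute phase response, did not pass. Its probe set 1423233_at read 452, 543 and 536 in GFP and 455, 593 and 541 in BPD livers. The signals of the groups covered nearly the same range. After centring the difference was -0.25 ± 0.15, with a 95% interval from -0.60 to 0.09 (limma adjusted p = 0.235), and with the deposited scaling it was 0.048. The dimmer 1456605_at, at 136, 126 and 125 in GFP and 142, 141 and 117 in BPD livers, gave -0.26 ± 0.20 (adjusted p = 0.330) and turned to 0.036 with the deposited scaling.

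Steap4 was higher in both of its probe sets. The bright 1460197_a_at read 1955, 2324 and 1688 in GFP and 3636, 4323 and 4083 in BPD livers. The groups were far apart and each was tight. The difference was 0.71 ± 0.15, or 1.64-fold (limma adjusted p = 0.0091), and it passed under every alternative in which it was measured, at 1.02 under the deposited scaling and 1.15 after quantile normalization. The second, 1425829_a_at, read 488, 865 and 392 in GFP and 853, 1605 and 1529 in BPD livers. Here BPD liver 23 lay below GFP liver 29. The difference was 0.89 ± 0.29 (adjusted p = 0.045), and the call was lost when BPD 28 or 36 (adjusted p 0.147 or 0.107) or GFP 22 or 31 (0.113 or 0.134) was left out. It was lost as well without the filter (adjusted p = 0.069) and with the 3' to 5' Gapdh ratio as a covariate (0.61, adjusted p = 0.085).

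**Figure D3:**
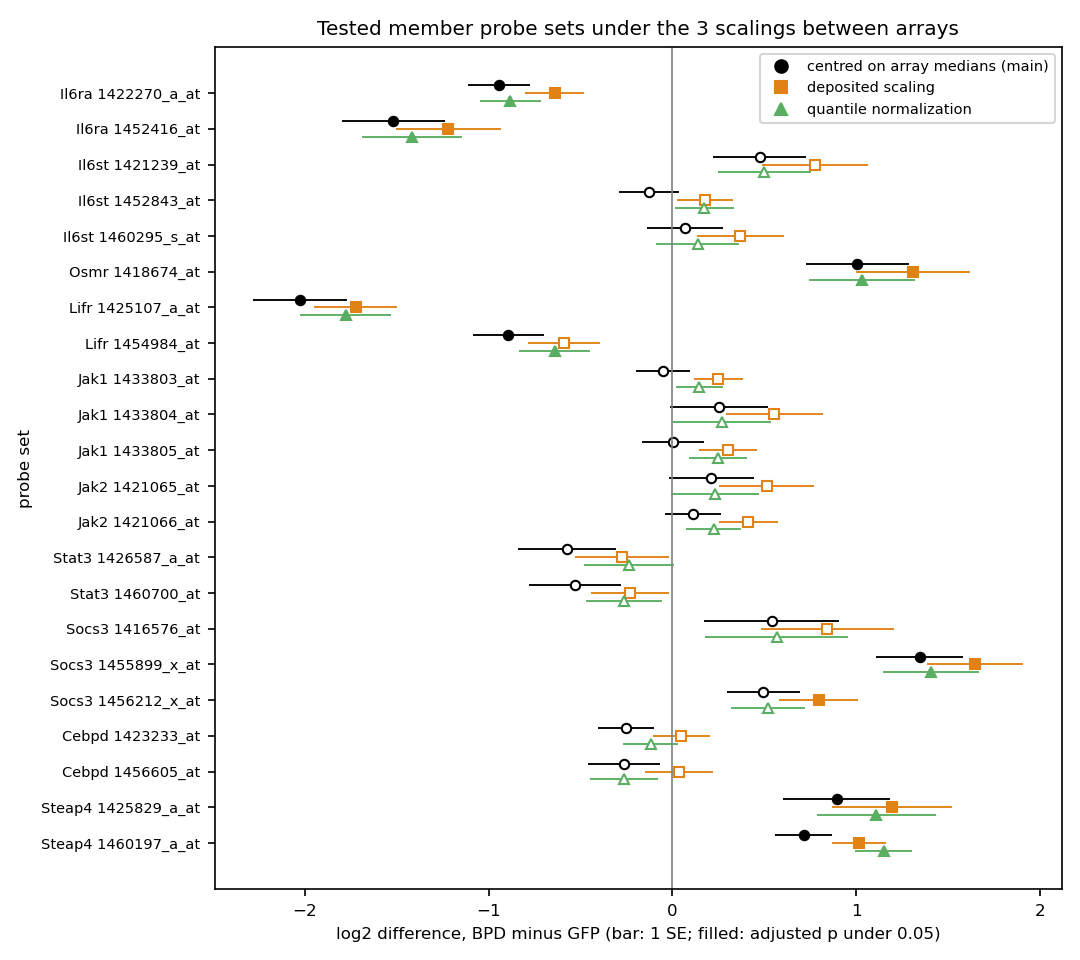
Log2 difference (BPD minus GFP, x axis) of the 22 tested probe sets with the arrays centred on their medians, as deposited, and after quantile normalization; bars are 1 SE and filled symbols have an adjusted p under 0.05. Il6ra and Lifr lie left of 0 and Osmr, Socs3 and Steap4 right of it under each scaling, whereas Il6st, Jak1 and Cebpd have probe sets that cross 0.

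Among the livers, BPD liver 28 had the highest centred value of all 6 in 7 of the 22 probe sets and the highest of the BPD livers in 10. GFP liver 31 had the lowest value of all 6 in 8. By the rule for likeness, the genes whose profile over the 6 livers was nearest to that of Socs3 (1455899_x_at) were Spdl1, Dock2 and Aurkb, at a root mean square difference of 0.15, 0.17 and 0.18 log2 units after each gene's mean was removed. Spdl1 and Aurkb act in chromosome segregation, and Dock2 is a migration factor of blood cells. Nearest to Osmr were Tpm1, Nid1 and Plagl1 (0.098, 0.105 and 0.11), of which Tpm1 encodes a tropomyosin and Nid1 a basement membrane protein. Nearest to Stat3 (1426587_a_at) were Scaf11, Dhx36 and Erf (0.071, 0.12 and 0.13). These distances are descriptions over 6 livers, and none of them was tested.

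Cell type markers differed between the groups too, but unevenly by cell type. Their counts stand beside 8.75% higher and 22.2% lower of all genes. Of 18 tested macrophage markers 12 were higher and 0 lower, and their summed signal was 34725 to 70597 in BPD and 8715 to 29377 in GFP livers. Of 15 tested markers of stellate cells and matrix 7 were higher and 0 lower (summed signal 22603 to 49173 in BPD and 9574 to 11333 in GFP livers). Of 8 neutrophil markers 4 were higher (2352 to 8968 against 823 to 1273). Among the BPD livers, 36 had the lowest sum of the macrophage, stellate and matrix, neutrophil, endothelial, B cell and bile duct markers. Its hepatocyte sum was the lowest of them too (270344), whereas the sum of T and natural killer cell markers was lowest in liver 23 (1593). Liver 36 also had the lowest Osmr signal of the BPD livers in 1418674_at, and a link to the marker sums was not tested. Of 14 hepatocyte markers 13 were lower, including albumin and transthyretin, and their summed signal was 270344 to 304033 in BPD and 373167 to 407400 in GFP livers. Of 13 endothelial markers 1 was higher and 1 lower. Higher too were all 3 tested markers of bile duct cells (5397 to 7280 against 1878 to 2100), 2 of 4 of T and natural killer cells (1593 to 2358 against 503 to 1277) and 1 of 4 of B cells (675 to 1411 against 443 to 636). The bile duct markers Krt19, Krt7, Epcam, Sox9 and Cftr were too dim to test. In the fit without the filter none of them passed (lowest limma adjusted p = 0.108, for Krt19). None of the markers was at 0 in any liver. Their part in the differences of the 10 genes was not tested. RNA quality, read as the ratio of 3' to 5' Gapdh control signal, was 0.735 to 0.863 in BPD and 0.785 to 0.900 in GFP livers. The same ratio for the actin control was 1.23 to 1.75 in BPD and 1.40 to 1.59 in GFP livers, with BPD liver 23 the highest of all.

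Other genes between cytokine and STAT are given by list, beside 8.75% higher and 22.2% lower of all genes. The lists are short, and none was tested as a set. Of 10 ligands and partners listed, 6 had a probe set and 2 were bright enough to test. Cardiotrophin-1 (Ctf1), a cytokine that signals through gp130 and LIFR, was lower, with 345, 479 and 429 in GFP and 279, 349 and 329 in BPD livers (-0.67 ± 0.16, limma adjusted p = 0.013), though not with the deposited scaling (-0.37, adjusted p = 0.149). Clcf1 did not pass. Il6 itself was dim in every liver (10.2 to 38.4), and Il11 and Lif stayed below the filter too. The brighter Lif probe set, 1421207_at, read 131, 83.6 and 65.4 in BPD and 45.5, 11.1 and 7.33 in GFP livers, which do not overlap but have a mean under the filter. In the fit without the filter this probe set differed by 1.33 ± 0.43 and missed the threshold (limma adjusted p = 0.066). The other Lif probe set, 1450160_at, did not show this difference. Its groups overlapped, with means of 45.7 in BPD and 35.6 in GFP livers, and it differed by -0.07 ± 0.29 in that fit (limma adjusted p = 0.885). In GFP livers 1450160_at was the brighter of the pair, since 1421207_at had a mean of 21.3 there. Of 5 other receptors 1 was tested, Csf3r (0.49 ± 0.17, limma adjusted p = 0.054), which is also among the neutrophil markers. Csf3r was higher under the deposited scaling and with quantile normalization. Of 8 other JAK and STAT genes 6 were tested and 0 passed, with 0 at an unadjusted p under 0.05. Of 12 phosphatases and adaptors 11 were tested and 0 passed, with 4 at an unadjusted p under 0.05. Under the deposited scaling 3 (27.3%) and with quantile normalization 2 (18.2%) of the 11 were higher. Of all genes 17.2% and 12.6% were higher under these settings, and the difference was not tested.

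None of the other inhibitors bright enough to test was higher. Of 11 SOCS, CISH and PIAS genes 9 were tested, 0 were higher and 2 (22.2%) lower, where all genes gave 8.75% higher and 22.2% lower. The share of lower genes was that of all genes, and 9 genes are too few to set 0 higher apart from 8.75%. Socs1 and Socs4 were too dim to test. Socs2, a feedback inhibitor of growth hormone signalling, read 319.8, 637 and 664 in GFP and 166, 291 and 309.5 in BPD livers, a difference of -1.31 ± 0.28 (limma adjusted p = 0.0092). All BPD livers were below the GFP livers in this probe set, the highest BPD liver only just. Cish, an inhibitor induced by STAT5, was at -0.82 ± 0.26 (adjusted p = 0.043), but passed under 5 of the 14 alternatives only, and not with the deposited scaling (-0.52, adjusted p = 0.216). Among the other C/EBP genes 1 of 4 tested passed. Cebpa, a factor of mature hepatocytes, was lower in BPD livers (-1.03 ± 0.29, adjusted p = 0.026), though with the deposited scaling (-0.73, adjusted p = 0.103) or quantile normalization (-0.57, adjusted p = 0.209) it did not pass, and with 1 mouse left out it passed only when that was BPD mouse 36. Of the STEAP genes listed, none was bright enough to test.

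Acute phase genes, the classical output of this pathway in hepatocytes, were mostly lower. Of 23 tested 14 were lower and 2 higher, or 60.9% and 8.70%, against 22.2% lower and 8.75% higher of all genes. The list median was -0.76, against -0.22 for all genes and -0.82 for the hepatocyte markers, of which 13 of 14 were lower. Serum amyloid P (Apcs) read 8234, 7614 and 7812 in GFP and 3245, 3487 and 4079.6 in BPD livers (-1.43 ± 0.16, limma adjusted p = 6.3e-04). Orm1, an acid glycoprotein, fell by 1.10 ± 0.19, and the fibrinogen chains Fgb and Fgg by 0.79 ± 0.14 and 0.76 ± 0.13. Under the deposited scaling 10 of the 23, or 43.5%, were lower, against 11.1% of all genes, with Fgb and Fgg among them (-0.49 and -0.45). After quantile normalization 3 of the 23, or 13.0%, were lower, near the 12.9% of all genes under that setting, and Fgb and Fgg were not among them (-0.18 and -0.12). The 2 higher genes, named after their values were seen, were Lcn2 (2.25 ± 0.44), an iron-sequestering protein also made by neutrophils and macrophages, and Saa3 (1.51 ± 0.37), a serum amyloid made in macrophages as well. Saa1 and Saa2 did not pass and overlapped widely, with Saa1 at 1885, 1786 and 7935 in BPD and 11815, 6985 and 3396 in GFP livers.

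Other genes that STAT3 can induce went both ways. Of 20 tested 4 were higher and 2 lower, or 20% and 10%, against 8.75% and 22.2% of all genes, and the list median was 0.23. Klf6, an early response factor, read 125, 124 and 78.8 in GFP and 844, 855 and 424 in BPD livers (2.18 ± 0.28, limma adjusted p = 9.8e-04). Survivin (Birc5), which is made in dividing cells, was at 2.57 ± 0.35, and the endotoxin co-receptor Cd14, a macrophage marker too, at 1.51 ± 0.30. Vegfa was lower (-0.98 ± 0.20). The remaining calls, named after their values were seen, were Ccnd1 (1.60 ± 0.45) and Pim3 (-1.05 ± 0.26). Of these genes 8 were higher under the deposited scaling and 7 after quantile normalization, settings in which 17.2% and 12.6% of all genes were higher.

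**Figure D4:**
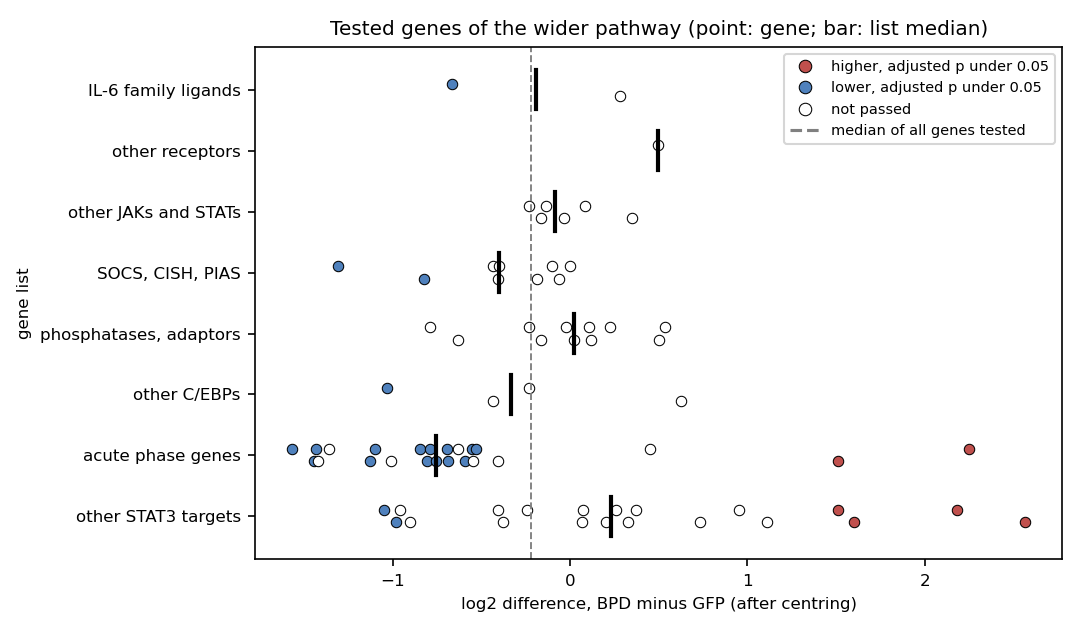
Log2 difference (BPD minus GFP, x axis) of each tested gene of the wider pathway by list; points are genes, filled where the adjusted p was under 0.05, thick bars list medians, and the dashed line the median of all genes at -0.22. Acute phase genes gather left of the line apart from Lcn2, Saa3 and the unfilled Il1rn, and the other JAKs and STATs lie between -0.23 and 0.35.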

How the data were processed

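The authors deposited 1 signal intensity per probe set and array, made with MAS5 per the submitters' processing notes. The version and target of MAS5 are not given in those sources, and the trimmed mean of each array was 499.9. Control probe sets (64) were left out, and all 6 columns were used. Symbols came from the platform annotation. Signals were analysed as log2(signal + 16.3), the constant being 10% of the median of all values, and centred on array medians, since medians ran from 135 to 197. Probe sets with a mean above the 40th percentile over all arrays (signal 98.8) were kept, and a gene was taken by its brightest kept probe set. Both groups, 3 livers each, entered 1 fit with limma 3.58.1 in R 4.3.3 (lmFit, eBayes with trend, 2-sided, 4 residual and 5.44 prior degrees of freedom), with Benjamini-Hochberg adjustment over 13575 probe sets. Errors are moderated SE, and 3 arrays per group limit the precision. The script was tested on simulated data.

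The members and the lists (17 with 222 entries, 9 of them of the pathway) were chosen with earlier results of these data known. The text names all members, up to 4 passed genes with the smallest p per pathway list, and the 3 nearest profiles (root mean square difference, clone names left out) of Socs3, Stat3 and Osmr, and others where stated. Alternatives were the scaling, the constant, the filter, robust eBayes, leaving out _s_at, _x_at and _a_at probe sets, the Gapdh ratio as a covariate, and leaving out each mouse.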

Additional observations from a re-analysis of the deposited data

How the results depend on the processing

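Of the 8 probe sets called, 5 kept direction and call in all alternatives in which they were measured, namely both of Il6ra, Lifr 1425107_a_at, Socs3 1455899_x_at and Steap4 1460197_a_at. Of the 14 not called, 3 passed under at least 1 alternative and 8 changed sign in at least 1. The number of higher probe sets (4) was 2 without the filter on dim probe sets and 2 to 4 with a mouse left out, and that of lower ones (4) was 4 to 6. Over all probe sets 5.27% were higher without the filter. With a mouse left out 4.45% to 8.88% of all were higher and 10.2% to 20.4% lower. Leaving out probe sets that end in _s_at, _x_at or _a_at left 1 higher and 2 lower, since it removes both Steap4 probe sets and the called ones of Socs3 and, for 1 probe set each, Il6ra and Lifr. Of all probe sets 8.62% were higher and 16.6% lower in that setting. Over the pathway lists 6 of 76 genes were higher and 20 lower (7.89% and 26.3%, near the 8.75% and 22.2% of all genes), with 15 and 13 under the deposited scaling (all genes 17.2% and 11.1%), 12 and 7 under quantile normalization (12.6% and 12.9%), and 5 to 9 and 14 to 21 with a mouse left out. With the deposited scaling the sign turned for Il6st 1452843_at (0.18), Jak1 1433803_at (0.25) and Cebpd 1423233_at (0.048) and 1456605_at (0.036), and with quantile normalization for the first pair (0.17 and 0.15). It turned too with a smaller constant for Jak1 1433805_at (-0.018) and with the Gapdh ratio for Il6st 1460295_s_at (-0.11). With a mouse left out the range was -0.075 to 0.29 for Il6st 1460295_s_at, -0.0032 to 0.47 for Jak1 1433804_at, -0.10 to 0.11 for Jak1 1433805_at and -0.0080 to 0.33 for Jak2 1421065_at. For calls that changed with a setting the cause was not tested. No paired analysis was possible because the mouse numbers are not shared between the groups. Each array is 1 mouse, and the p-values rest on the spread between livers within the groups, moderated by that of all probe sets tested.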
